A study of Mus musculus with 7 samples.

Results

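The library of mouse neural cells exposed to DDT was set directly against the library exposed to deltamethrin, without the control library, so the comparison holds 2 of the 7 libraries in the series. The 2 libraries were chosen by their sample titles, and no measured value entered the choice. Both came from the mouse embryonic stem cell line B6G-2, labelled wild type, and neither the labels nor the titles name a transgene. Stem cells formed embryoid bodies for 6 days and were then grown as neural progenitors in RHB-A medium with bFGF and EGF on poly-ornithine and laminin. On day 14 the progenitors were moved to BrainPhys medium with B27 to differentiate, and 1 insecticide was then added for a single day. Dose, vehicle, animal age and batch are absent from the labels, so the 2 insecticides cannot be said to have been given at matched doses. The other exposed libraries, with 1 each for chlorpyrifos, rotenone, carbaryl and imidacloprid, are given beside many of the named genes as a range of 4 values. With 1 library per insecticide no difference has a replicate check, and every difference below compares 2 libraries, not 2 conditions.

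Voltage-gated sodium channels carry the rising phase of the action potential. A large alpha subunit forms the pore and small beta subunits adjust its gating. The channel opens on depolarisation and inactivates within moments, and DDT, an organochlorine, and deltamethrin, a pyrethroid with an alpha-cyano group, both slow its closing so that sodium keeps entering. In neurons such entry leads to repeated firing and calcium influx, and calcium switches on immediate early genes and later activity-regulated genes. The question put to the files was what 2 agents with this shared target differed in.

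Each file lists transcript-structure events, among them starts and ends of transcripts, exons that are skipped and introns that are kept. Each event has an FPKM value, a unit of fragments scaled to transcript length and library size. The lowest listed value was 1e-06 FPKM in both the DDT and the deltamethrin library. Whether event values are fragment counts or estimates shared out among transcript forms was not tested. The DDT library held 91070 distinct events and the deltamethrin library 91194. The 79378 events found in both made up 87.2% of the DDT events and 87.0% of the deltamethrin events. Start events summed to 290440 FPKM with DDT and 282569 FPKM with deltamethrin, the highest and the lowest of the 6 exposed libraries. The depth per library is unknown, so no counting error can be given.

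The tissue is labelled brain. Markers of neural progenitors and neurons were present, while those of astrocytes were present only in part. Vimentin (Vim), an intermediate filament of progenitors, stood at 1211 FPKM with DDT and 1145 FPKM with deltamethrin. Doublecortin (Dcx), of migrating neurons, stood at 24.9 and 27 FPKM. Among 24 astrocyte markers, the glutamine synthetase gene Glul stood at 122 and 143 FPKM and Aldoc, an aldolase, at 62.5 and 78.0 FPKM. Another 3, including the filament gene Gfap and the water channel gene Aqp4, were under 1 FPKM. Of the 24, 12 had a usable level, so these values do not establish how far astrocytes had formed. Summed over whole marker lists, taking the larger of the start and end totals of each gene, neuron markers came to 826 FPKM with DDT and 861 with deltamethrin, astrocyte markers to 914 and 954, and progenitor markers to 1866 and 1735. Oligodendrocyte lineage markers came to 162 and 213 FPKM, and most of that gap lay in Olig2, whose larger end total was 110 FPKM with DDT and 158 FPKM with deltamethrin against 155 to 169 FPKM in the other 4 libraries. Markers of endothelium, microglia and endoderm summed to 3.93 and 1.22 FPKM, with 13 of 17 not listed at all, and pluripotent stem cell markers summed to 4.14 and 4.06 FPKM. These are bulk cultures, in which fewer cells of a type and less RNA per cell cannot be told apart, and the part of cell composition in the differences below was not tested.

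Across 6210 genes whose start and end totals agreed and whose mean was at least 1 FPKM, the 2 libraries were close. The difference DDT minus deltamethrin of log2(FPKM + 1) had a median of 0.01 and an SD of 0.32, and 94.1% of genes lay within 1.5-fold. At 2-fold or more stood 111 genes (1.79% of those measured), of which 56 were higher with DDT (0.902%) and 55 lower (0.886%). Of these, 93 passed 2-fold the same way in the start total and in the end total. The 2 totals are not independent readings, because genes were kept only where they agreed. In some genes, such as Eno1b, both totals gave the same difference (-4.01). Their agreement is therefore no check on a difference. The other 14 pairs of exposed libraries, 8 of which share the DDT or the deltamethrin library, put between 1.53% and 1.92% of genes at 2-fold or more. The number of genes separating these sodium channel agents was therefore inside the range found between libraries of any 2 insecticides. In 32 of the 111 genes the DDT and deltamethrin libraries were the 2 extremes of the 6 exposed libraries. In 31 the DDT value alone lay outside the range of the other 4, in 34 the deltamethrin value alone did, and in 12 both values lay inside it. Over all genes the DDT value lay inside that range in 58.0% and the deltamethrin value in 61.2%. The 111 genes were selected by the gap between these 2 libraries, which by itself favours outer positions. The shares over all genes are therefore not a like comparison, and the positions add no support to a difference.

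**Figure D1:**
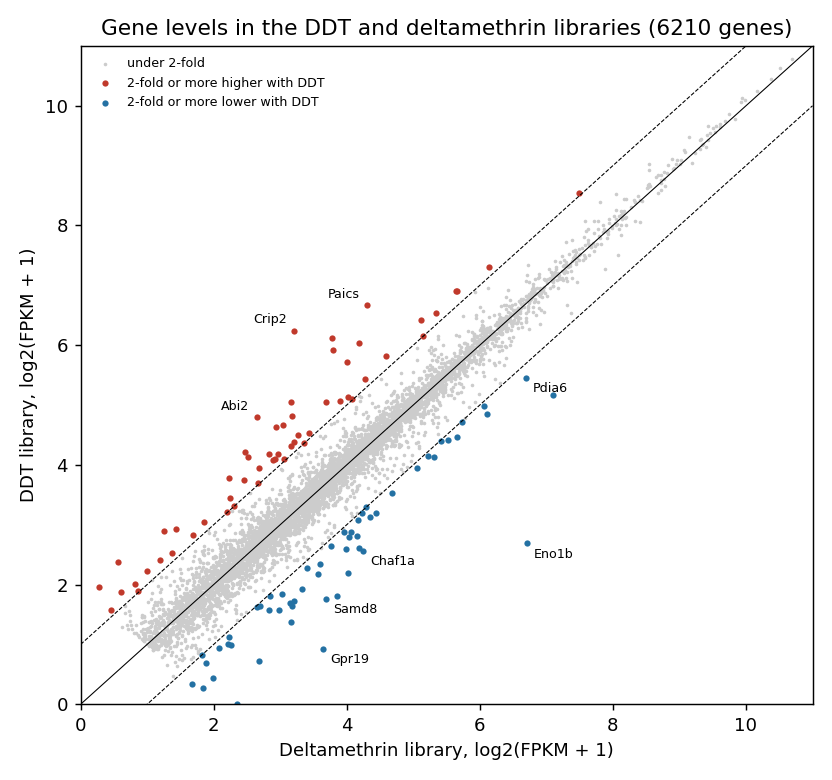
Each point is 1 of 6210 genes, with log2(FPKM + 1) in the deltamethrin library on the x axis and in the DDT library on the y axis; the solid line marks equal levels and the dashed lines a 2-fold difference. The 56 genes at 2-fold or more higher with DDT and the 55 lower lie on both sides of a dense band, with Crip2 and Eno1b farthest out.

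The sodium channel genes themselves were barely expressed. Of 15 subunit genes only Nalcn could be used for a fold. It encodes the sodium leak channel, a relative that is not opened by voltage in the classical way, and stood at 1.29 FPKM with DDT and 1.78 FPKM with deltamethrin, against 1.07 to 1.43 FPKM in the other 4 libraries. That is a difference of -0.28 on the log2(FPKM + 1) scale, with deltamethrin the highest of the 6. Among the pore-forming alpha subunits, Scn8a had a start total of 3.30 FPKM with DDT and 3.37 FPKM with deltamethrin, but its start and end totals disagreed and no fold is given. Scn1a, Scn2a and Scn3a fell under the limit of 1 FPKM on the mean of both totals. By the larger total, Scn2a stood at 1.19 and 0.25 FPKM, and Scn3a at 1.86 FPKM with DDT and listed at 0 with deltamethrin. The beta subunit Scn3b stood at 5.85 and 7.18 FPKM by its larger total, against 5.73 to 6.86 FPKM in the others. Its start and end totals also disagreed, so no fold is given. Scn2b was under 1 FPKM in both libraries. Of the 15 subunit genes 7 had no start or end event in either library. Only Nalcn had a usable level, and the values of Scn3b, Scn2a and Scn3a come from a single total. No direction is therefore given for the subunits as a group.

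Genes whose products anchor, modulate or work against sodium channels were measured more often, in 9 of 21 cases. Of these 9, 3 were higher with DDT and 6 lower, with a median difference of -0.10, where 52.2% of all genes were higher with DDT and 47.8% lower. Among them are Fgf11 and Fgf13, intracellular fibroblast growth factors that bind the channel tail. Fgf11 stood at 2.16 FPKM with DDT and 1.141 FPKM with deltamethrin, and these were the highest and the lowest of the 6 exposed libraries. Fgf13 stood at 3.92 and 5.70 FPKM against 6.62 to 7.37 FPKM in the other 4, so both libraries lay below the others. Sptbn1, a spectrin of the membrane skeleton, stood at 34.1 and 38.8 FPKM. None of the 9 reached 2-fold.

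Other ion channel and receptor lists showed few large differences. Of 8 usable potassium channel genes, 3 were higher with DDT and 5 lower (median -0.17). Kcnj10, the glial inward rectifier, stood at 15.5 FPKM with DDT and 19.3 FPKM with deltamethrin. Of 13 calcium channel and calcium signalling genes, 7 were higher and 6 lower (median 0.04), and that list held the widest differences among the excitability genes. Atp2a2, the pump that returns calcium to the endoplasmic reticulum, stood at 40.2 FPKM with DDT against 78.3 FPKM with deltamethrin and 69.6 to 84.8 FPKM in the other 4, a difference of -0.95 in which DDT alone stood apart. Ppp3cb, a catalytic subunit of the calcium-dependent phosphatase calcineurin, stood at 30.2 FPKM with DDT and 16.6 FPKM with deltamethrin, against 20.6 to 33.6 FPKM in the others. Camkk2, a kinase that activates other calmodulin-dependent kinases, stood at 11.1 and 6.32 FPKM, with DDT above the range of 3.98 to 7.08 FPKM. Of 11 GABA and glutamate receptor genes 2 were higher with DDT and 9 lower (median -0.12). Gria2, the AMPA receptor subunit that limits calcium entry, stood at 22.2 FPKM with DDT and 32.6 FPKM with deltamethrin, against 27.2 to 34.9 FPKM. Gabra3, a subunit of the GABA-A receptor, stood at 2.38 and 1.30 FPKM, the highest and the lowest of the 6 libraries.

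Immediate early genes did not separate the 2 libraries as a list. Of 13 usable members of 29, 5 were higher with DDT and 8 lower, with a median of -0.02. The 3 members with the widest difference were transcription factors that respond to firing, and each was lowest with DDT among the 6 libraries. Nr4a1 stood at 3.76 FPKM with DDT and 5.21 FPKM with deltamethrin, against 5.73 to 6.81 FPKM in the other 4. Fos stood at 2.53 and 3.26 FPKM, against 3.63 to 4.74 FPKM. Egr1 stood at 14.6 and 17.7 FPKM, against 15.4 to 23.4 FPKM. For Nr4a1 and Fos the deltamethrin library was the second lowest, so in these genes both libraries lay below the other 4. The list as a whole did not share this. The DDT value lay inside the range of the other 4 in 8 of the 13 members and the deltamethrin value in 10. How often both libraries lie below the other 4 over all genes was not counted. Atf3, a stress and activity factor, went the other way at 1.43 and 1.16 FPKM, and the synaptic gene Arc was close at 6.27 and 5.70 FPKM. Npas4, the most selective of the calcium-driven factors, was under 1 FPKM in both libraries.

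Genes that follow later after activity were more one-sided. Of 9 usable members of 18, 1 was higher with DDT and 8 were lower, with a median of -0.28 where all genes had 0.01. The DDT value lay inside the range of the other 4 libraries in 5 of the 9, and the deltamethrin value also in 5. Against each of the other 4 libraries the list's median was between -0.15 and 0.008 for DDT. For deltamethrin it was between -0.005 and 0.21. Nptx2, a secreted pentraxin that gathers AMPA receptors, stood at 8.71 FPKM with DDT and 11 FPKM with deltamethrin, against 11.1 to 12.7 FPKM in the others. Rgs2, which shortens G protein signals, stood at 7.46 and 9.71 FPKM, the lowest and the highest of the 6. Gadd45g stood at 20.4 and 25.5 FPKM, against 20.7 to 25.6 FPKM. Scg2, a granin of dense-core vesicles, stood at 2.68 and 3.60 FPKM, both inside the range of 2.11 to 3.98 FPKM. Cdkn1a, which also belongs to the p53 list, stood at 65.6 and 79.6 FPKM. None of these reached 2-fold, and Bdnf was under 1 FPKM in both.

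**Figure D2:**
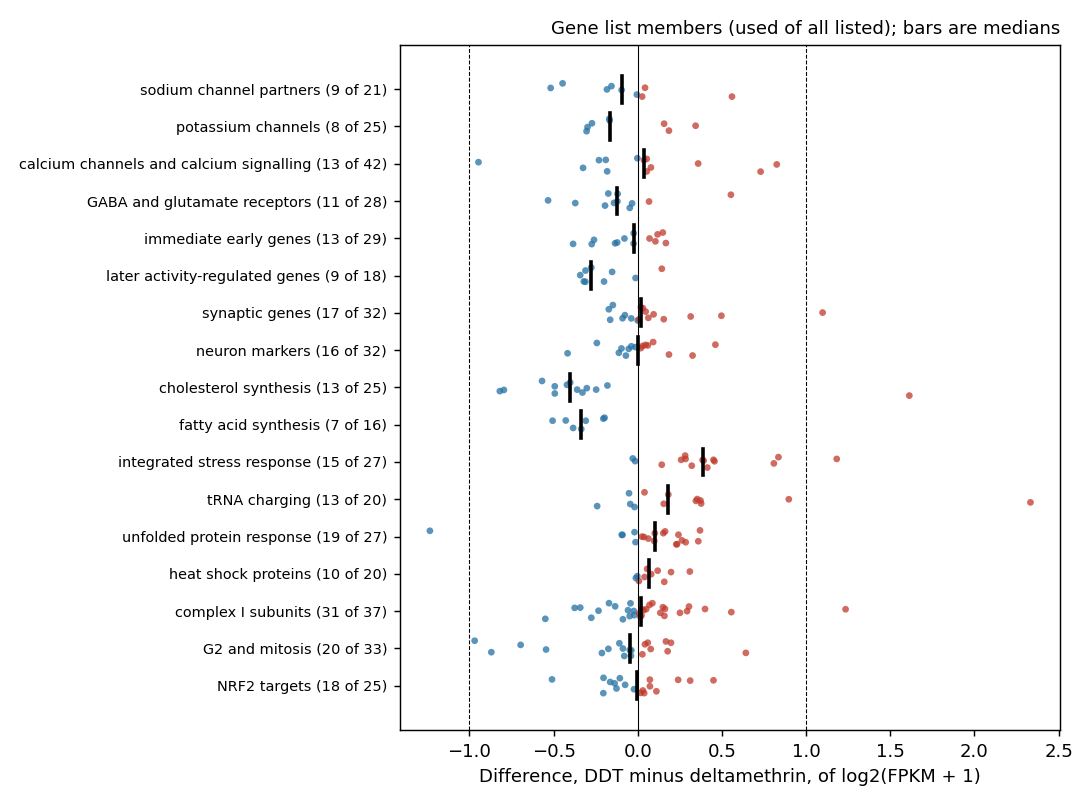
Each point is a list member that could be used, placed by its difference DDT minus deltamethrin of log2(FPKM + 1), red where higher with DDT and blue where lower; black bars are list medians, dashed lines mark 2-fold, and points are spread vertically only for legibility. Cholesterol and fatty acid synthesis lie left of 0 with medians of -0.40 and -0.34, the integrated stress response lies right of it with 0.39, and the excitability lists straddle it.

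The widest difference between lists lay in lipid synthesis, where DDT was lower. Cholesterol is made from acetyl-CoA through mevalonate, squalene and lanosterol, and the genes of this route share a transcription factor, SREBP2, which is released when the endoplasmic reticulum runs low in sterol. Of 13 usable members of 25, 12 were lower with DDT than with deltamethrin and 1 was higher, and the median difference was -0.40. DDT was the lowest of the 6 exposed libraries in 11 of the 13, where it was lowest in 16.2% of all genes. The deltamethrin value lay inside the range of the other 4 libraries in 10 of the 13 and the DDT value in 2. Set against each of the other 4 libraries in turn, the list's median was between -0.53 and -0.29 for DDT and between -0.11 and 0.12 for deltamethrin. That DDT stood low in this list was already known when the list was chosen.

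By step of the pathway, the entry enzyme Hmgcs1 stood at 180 FPKM with DDT and 268 FPKM with deltamethrin, against 243 to 299 FPKM in the other 4. Hmgcs1 was thus lowest with DDT among the 6 exposed libraries, each with 1 value. Sqle, which oxidises squalene, stood at 81.3 and 92.2 FPKM, the smallest gap of the list. Lss, which folds it into lanosterol, stood at 15.2 FPKM with DDT and 27.7 FPKM with deltamethrin, against 28.8 to 34.5 FPKM, a difference of -0.82. Msmo1, of the demethylation steps, stood at 42.1 and 73.8 FPKM, a difference of -0.79, but chlorpyrifos was as low as DDT at 39.5 FPKM. Nsdhl, of the same steps, stood at 33.7 and 47.9 FPKM and Hsd17b7 at 9.03 and 13.1 FPKM, both lowest with DDT. Outside the enzymes, the sterol sensor partner Insig1 stood at 66.0 and 87.5 FPKM, against 78.0 to 97.5 FPKM. Stard4, a carrier that moves cholesterol between membranes, was the exception at 16.5 FPKM with DDT and 4.72 FPKM with deltamethrin. Its other 4 values ran from 3.64 to 20.2 FPKM, with carbaryl the highest, so for Stard4 the DDT value was inside the range.

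Fatty acid synthesis showed the same direction. All 7 usable members of 16 were lower with DDT (median -0.34), and DDT was the lowest of the 6 libraries in each of the 7. Scd1, the desaturase that makes oleate, stood at 45.7 FPKM with DDT and 65.3 FPKM with deltamethrin, against 52.6 to 71.9 FPKM in the other 4. Fasn, the fatty acid synthase, stood at 61.6 and 83.2 FPKM, against 75.1 to 89.8 FPKM. Acss2, which makes acetyl-CoA, stood at 8.08 and 10.8 FPKM, Fads2, a desaturase of polyunsaturated fatty acids, at 94.7 and 120 FPKM, and Elovl6, an elongase, at 27.7 and 34.6 FPKM. The deltamethrin value lay inside the range of the other 4 in 6 of the 7 genes.

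The integrated stress response went the other way. In it, kinases that sense amino acid shortage, misfolded protein or other stress phosphorylate eIF2, which lowers translation overall while raising that of ATF4, and ATF4 then switches on genes for amino acid import and synthesis and for tRNA charging. Of 15 usable members of 27, 13 were higher with DDT and 2 lower, with a median of 0.39, and DDT was the highest of the 6 libraries in 11, where it was highest in 19.5% of all genes. Against each of the other 4 libraries the list's median was between 0.17 and 0.41 for DDT and between -0.20 and 0.07 for deltamethrin. High values of this list with DDT were also known before the list was chosen. Atf4 itself stood at 134 FPKM with DDT and 102.5 FPKM with deltamethrin, against 101 to 118 FPKM. Its partner and target Ddit3 stood at 9.13 and 6.73 FPKM, against 5.38 to 8.81 FPKM.

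Among amino acid transporters, Slc7a1 stood at 19.9 FPKM with DDT and 8.20 FPKM with deltamethrin, against 7.85 to 15.5 FPKM, a difference of 1.18 and the only one of the list past 2-fold. Slc7a11, the cystine carrier, stood at 4.56 and 3.07 FPKM, against 1.75 to 3.39 FPKM. Of the synthetic enzymes, Aldh18a1, which starts proline synthesis, stood at 34.9 and 19.1 FPKM, the highest and the lowest of the 6, and Asns, the asparagine synthetase, at 52.8 and 39.4 FPKM, with rotenone slightly above DDT at 53.6 FPKM. Chac1, which degrades glutathione, stood at 8.49 FPKM with DDT and 4.42 FPKM with deltamethrin, against 2.49 to 6.52 FPKM. Trib3, a pseudokinase that restrains the pathway, stood at 2.18 and 1.32 FPKM, but rotenone reached 2.14 FPKM. Gdf15, a secreted stress cytokine, stood at 6.93 FPKM with DDT and was listed at 0 with deltamethrin, with at most 2.24 FPKM elsewhere. For Atf4, Ddit3, Trib3, Chac1, Asns, Slc7a11 and Slc7a1 the rotenone library was the nearest to DDT of the other 4. The deltamethrin value was inside the range of the other 4 in 12 of the 15 members.

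**Figure D3:**
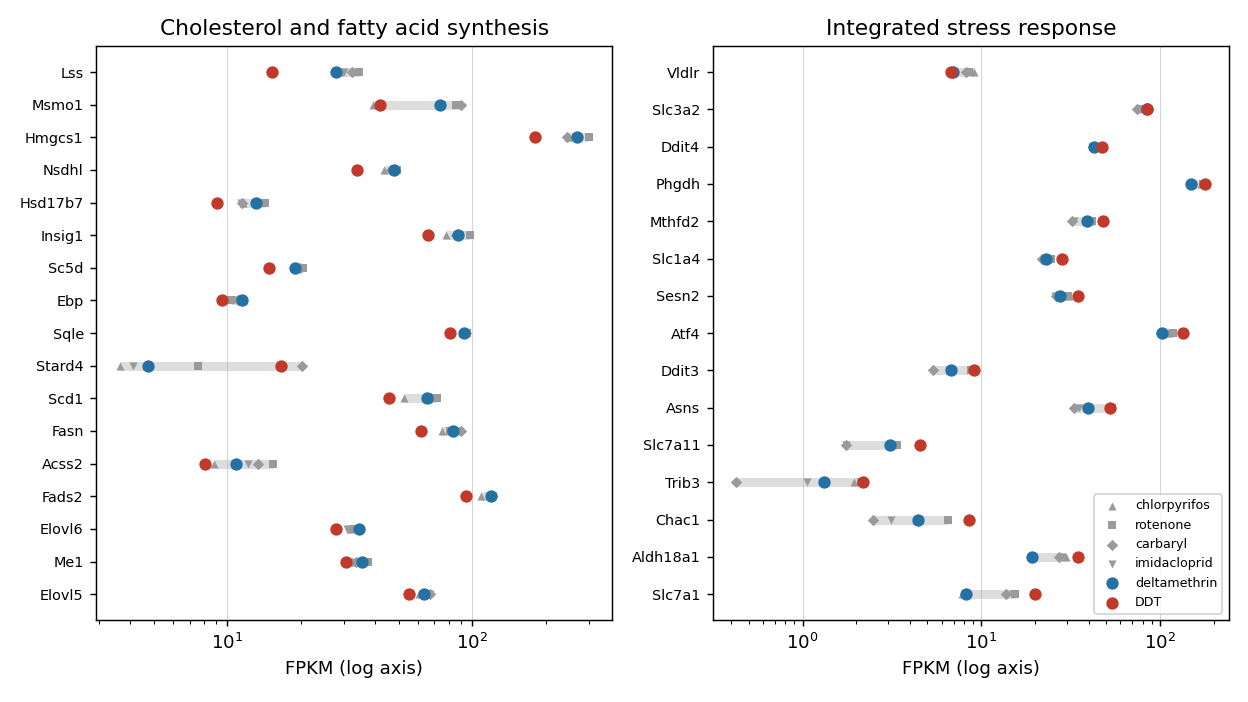
FPKM on a log axis in the 6 exposed libraries, with red for DDT, blue for deltamethrin and grey symbols and bars for the other 4 libraries and their range, for members of the cholesterol and fatty acid lists (left) and the usable members of the integrated stress response list (right). DDT lies below the grey range in the lipid genes drawn, other than Msmo1 and Stard4, and above it in 11 of the 15 stress genes.

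The promoters of some of these genes carry the letters that ATF4 complexes bind. The motif TGATGNAA, searched on both strands in the 250 bases before each RefSeq gene start (build GRCm38.p6), was found in 3.45% of 32851 promoters and in 3.91% of 27025 genes. It was present in 6 of the 25 list genes with a promoter entry (24.0%), namely Chac1, Asns, Slc7a11, Pycr1, Vldlr and Nupr1, of which Chac1, Asns, Slc7a11 and Vldlr had a usable level, and in 3 of 12 tRNA charging genes with an entry, Aars, Gars and Tars. The stress list gathers genes of the ATF4 response, so its share describes the list and not a difference between the libraries. For sterol genes the motif TCACNCCAC was found in 1.05% of promoters and in 1 of 17 cholesterol genes with an entry, Hmgcs1. The stretches below are shown because their genes belong to lists that differed between DDT and deltamethrin, Tars to the tRNA charging list described next; capitals mark the motif, and a match is a description, not a bound site. They lie at chr2:119351009-119351096 (Chac1, plus strand), chr3:50443614-50443719 (Slc7a11, minus strand), chr6:7693210-7693272 (Asns, minus strand), chr15:11399659-11399713 (Tars, minus strand) and chr13:119690174-119690262 (Hmgcs1, plus strand).
Chac1: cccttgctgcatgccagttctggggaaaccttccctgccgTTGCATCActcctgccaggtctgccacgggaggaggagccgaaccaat
Slc7a11: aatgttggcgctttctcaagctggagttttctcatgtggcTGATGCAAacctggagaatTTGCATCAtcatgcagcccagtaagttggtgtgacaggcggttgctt
Asns: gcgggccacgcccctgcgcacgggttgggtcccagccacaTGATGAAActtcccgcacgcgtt
Tars: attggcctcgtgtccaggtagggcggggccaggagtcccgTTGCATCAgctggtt
Hmgcs1: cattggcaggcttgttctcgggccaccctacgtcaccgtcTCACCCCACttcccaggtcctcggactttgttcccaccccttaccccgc
The Slc7a11 stretch held the motif on both strands, beginning 66 and 47 bases before the start, and the Asns motif began 23 bases before it.

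tRNA charging enzymes, several of them ATF4 targets, were higher with DDT in 9 of 13 usable genes and lower in 4 (median 0.18), and DDT was the highest library in 8. Nars, the asparagine enzyme, stood at 68.2 FPKM with DDT and 12.7 FPKM with deltamethrin, a difference of 2.33. The other 4 libraries held 52.1 to 67.9 FPKM, so for Nars the deltamethrin library was the one apart. Rars, the arginine enzyme, stood at 60.8 and 32.2 FPKM, but its other values spread from 21.9 to 53.6 FPKM. Iars, Cars and Tars stood at 32.6 and 24.9, 23.3 and 17.8, and 32.6 and 25.3 FPKM, with differences of 0.38, 0.37 and 0.35. Mars, the methionine enzyme, was lower with DDT at 27.9 against 33.1 FPKM.

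The unfolded protein response, which enlarges the folding capacity of the endoplasmic reticulum, was higher with DDT in 14 of 19 usable genes and lower in 5, with a small median of 0.10; DDT was the highest library in 10. Manf, a secreted factor of that compartment, stood at 83.9 and 64.7 FPKM, against 65.6 to 75.9 FPKM. The chaperone Calr stood at 269 and 209 FPKM, but inside the range of 191 to 317 FPKM, and the chaperone Hspa5 was level at 264 and 259 FPKM. Sdf2l1 and Creld2 stood at 30.5 and 24.8 and at 43.1 and 35.8 FPKM, with DDT the highest library for both and deltamethrin at the lowest level of the 6. Pdia6, a disulphide isomerase, ran against the list at 42.8 FPKM with DDT and 102 FPKM with deltamethrin, a difference of -1.23, with chlorpyrifos as low as DDT at 43.0 FPKM. Heat shock proteins, by contrast, differed little (8 of 10 higher with DDT, median 0.07), and deltamethrin was the lowest library in 6 of the 10, where it was lowest in 16.7% of all genes.

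Of single genes, the 12 with the largest positive and the 12 with the largest negative difference at a mean of at least 5 FPKM are given next. Crip2, a LIM-domain protein (chr12:113140236-113145506), stood at 74.7 FPKM with DDT and 8.27 FPKM with deltamethrin, a difference of 3.03. The other libraries fell into a high and a low pair for Crip2, with chlorpyrifos and rotenone at 58.3 and 62.6 FPKM and carbaryl and imidacloprid at 9.49 and 10.1 FPKM. Paics, a purine synthesis enzyme, stood at 101 and 18.8 FPKM (difference 2.36), with the others at 44.0 to 104 FPKM. Abi2, of the actin-regulating WAVE complex, stood at 26.7 and 5.26 FPKM (2.15), and its other values spread from 4.36 to 45.6 FPKM. Kitl, the ligand of the receptor KIT, stood at 59.8 and 12.9 FPKM (2.12), with carbaryl as low as deltamethrin at 12.5 FPKM. For these 4 genes at least 1 other library reached nearly the level of one side or the other.

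Vps35 and Mob4 were set apart by DDT. Vps35, the core of the retromer that recycles membrane proteins from endosomes (chr8:85260392-85299802), stood at 64.4 FPKM with DDT, 17.3 FPKM with deltamethrin and 19.5 to 26.4 FPKM in the other 4, a difference of 1.84. Mob4, a subunit of a phosphatase complex, stood at 23.8, 6.68 and 7.13 to 10.8 FPKM (1.69). Ap2b1, the beta subunit of the clathrin adaptor of the cell surface, was set apart by deltamethrin, at 51.8 FPKM with DDT, 14.98 with deltamethrin and 31.6 to 52.2 FPKM elsewhere (1.72). Mesd, a chaperone of lipoprotein receptors, stood at 32.1 and 7.99 FPKM (1.88) with the others at 15.3 to 55.3 FPKM. The long non-coding RNA Tug1, annotated as antisense, stood at 17.5 and 4.57 FPKM (1.73), against 2.34 to 21.1 FPKM. Lsm5, an RNA-binding protein of the spliceosome, stood at 27.2 and 7.999 FPKM (1.65), against 5.03 to 32.7 FPKM. For Tug1 and Lsm5 both libraries thus lay inside the range of the others. Zfp330 stood at 24.4 and 7.26 FPKM (1.62), against 9.44 to 21.1 FPKM.

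Among genes lower with DDT, Eno1b showed the widest gap of all, with 5.47 FPKM against 103.2 FPKM, a difference of -4.01. Eno1b closely resembles Eno1, which encodes the glycolytic enzyme enolase, so its reads are uncertain; chlorpyrifos was also low for it at 2.55 FPKM, and Eno1 stood at 488 and 372 FPKM, in the opposite order. Gpr19, an orphan receptor of neural cells, stood at 0.90 FPKM with DDT and 11.4 FPKM with deltamethrin (-2.71), against 4.46 to 14.4 FPKM. Chaf1a, the large subunit of the complex that loads histones behind the replication fork (chr17:56040439-56072289), stood at 4.90 FPKM with DDT against 17.95 FPKM with deltamethrin and 15.2 to 18.7 FPKM elsewhere (-1.68). Samd8, a ceramide phosphoethanolamine synthase, stood at 2.39 and 11.9 FPKM against 7.27 to 10.6 FPKM (-1.93). Zdhhc20, a protein palmitoyltransferase, stood at 2.51 and 13.4 FPKM against 5.20 to 11.7 FPKM (-2.04). In Gpr19, Chaf1a, Samd8 and Zdhhc20 the DDT value lay below the lowest of the other libraries, and for Chaf1a the other 5 were close together.

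Acads, a mitochondrial enzyme that oxidises short fatty acids, stood at 5.08 and 17.1 FPKM (-1.58), one below and one above the narrow range of 8.55 to 10.1 FPKM of the other 4. Sox5, a transcription factor of neural and cartilage progenitors, stood at 2.79 and 9.06 FPKM (-1.41) against 2.92 to 4.94 FPKM, so that deltamethrin was the one apart. Dmtf1 stood at 5.06 and 14.9 FPKM (-1.39) against 10.7 to 14.5 FPKM, with DDT low. Gtf2h4, a subunit of the transcription and repair factor TFIIH, stood at 3.53 and 10.9 FPKM (-1.39), against 5.24 to 10.8 FPKM. Itgb3bp, a kinetochore protein, stood at 2.13 and 8.02 FPKM (-1.53), against 2.45 to 6.12 FPKM. Syne2, a giant protein of the nuclear envelope, stood at 2.31 and 8.23 FPKM (-1.48), against 1.66 to 7.90 FPKM. Sp3os, a transcript antisense to Sp3, stood at 2.25 and 7.88 FPKM (-1.45), against 4.93 to 8.39 FPKM. The sources used here do not say whether strand was kept, so the reads of Sp3os may include some of Sp3.

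**Figure D4:**
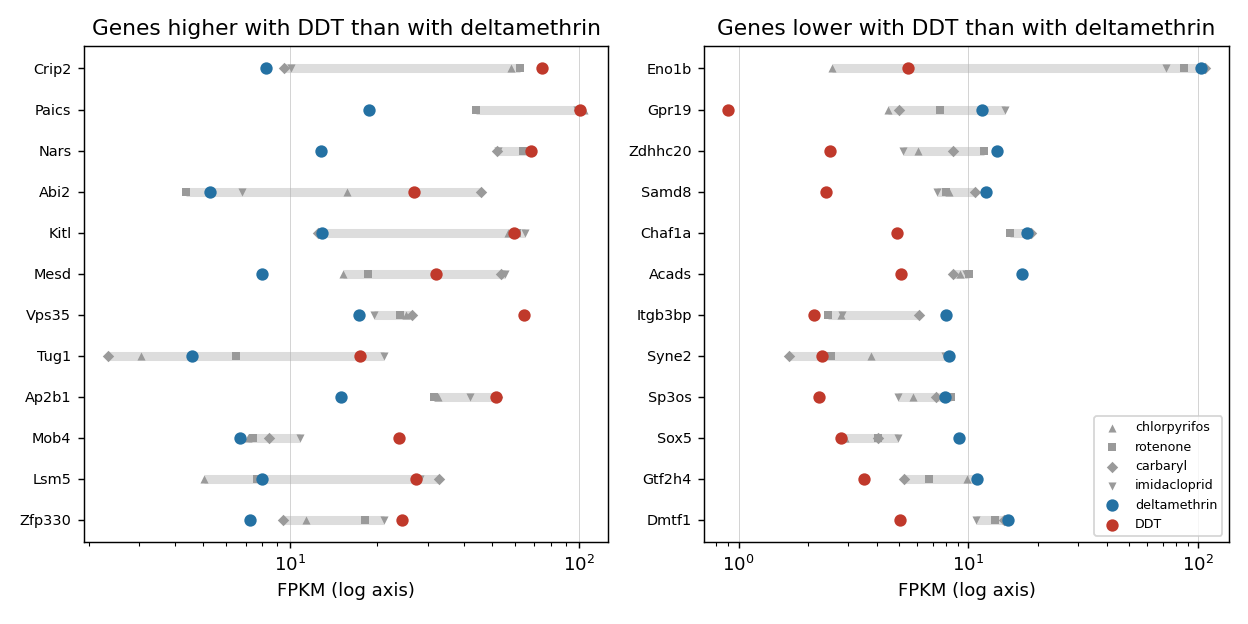
FPKM on a log axis for the 12 genes with the largest positive difference (left) and the 12 with the largest negative difference (right), with red for DDT, blue for deltamethrin and grey symbols and bars for the other 4 exposed libraries and their range. Vps35 and Mob4 have 1 library apart, the DDT one, Nars and Ap2b1 have the deltamethrin one apart, and Abi2 and Tug1 are spread over all libraries.

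Cell cycle genes differed in a few members only. Of 20 usable genes of G2 and mitosis, 8 were higher with DDT and 12 lower (median -0.04), and DDT was the lowest library in 7. Cyclin B1 (Ccnb1) stood at 30.3 FPKM with DDT and 56.2 FPKM with deltamethrin, against 34.5 to 62.4 FPKM, and its kinase Cdk1 at 19.9 and 32.8 FPKM, the lowest and the highest of the 6. The kinesin Kif20a stood at 13.8 and 27.9 FPKM, against 19.9 to 30.01 FPKM, and the spindle factor Tpx2 at 39.3 and 57.8 FPKM, against 43.0 to 49.1 FPKM. Cenpe, a kinetochore motor, was the reverse at 12.7 and 7.80 FPKM. Other members such as Ccna2 (74.0 and 72.6 FPKM) and Plk1 (61.9 and 60.1 FPKM) were level, so the list did not move as one.

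Complex I, neuron and synaptic lists had medians near 0, and astrocyte markers were lower with DDT. Of 31 complex I subunits 18 were higher with DDT and 13 lower (median 0.02), but deltamethrin was the lowest library in 14. Ndufv1, which binds NADH, stood at 55.4 FPKM with DDT and 23.0 FPKM with deltamethrin, against 38.2 to 63.5 FPKM (1.23), and Ndufs8, an iron-sulphur subunit, at 63.2 and 42.7 FPKM, against 68.9 to 72.3 FPKM (0.56). Ndufa6 was the reverse at 50.1 and 73.7 FPKM. Neuron markers split into 8 higher and 8 lower of 16 (median 0.00). Tbr1, of deep-layer cortical neurons, stood at 4.49 and 2.98 FPKM, and Gad2, of inhibitory neurons, at 2.44 and 3.59 FPKM. Synaptic genes split into 10 higher and 7 lower (median 0.02), and Rab3a, a GTPase of synaptic vesicles, was the one past 2-fold, at 22.1 FPKM with DDT, 9.81 FPKM with deltamethrin and 19.0 to 23.2 FPKM elsewhere (1.10). Astrocyte markers were lower in 10 of 12 (median -0.19), among them Glul, which makes glutamine, at 122 and 143 FPKM, against 137 to 157 FPKM. Foxj1, the regulator of motile cilia in ependymal cells, stood at 6.59 and 1.69 FPKM, against 2.96 to 7.80 FPKM (1.496).

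Splicing was compared by the share of FPKM on the form that contains an exon or intron. Events were used where their forms with and without it summed to at least 5 FPKM in both libraries. The values given for the other 4 libraries did not have to reach that sum. A share of all or none below describes listed FPKM, and whether it reflects counted reads was not tested. Of 7230 events 966 differed by 20 percentage points or more (13.4%), with 483 more included with DDT and 483 less. Skipped exons passed in 693 of 4816 events (14.4%), runs of several skipped exons in 135 of 879 (15.4%) and retained introns in 138 of 1535 (8.99%). The other 14 pairs of exposed libraries gave 13.3% to 15.2%, 11.4% to 16.0% and 9.603% to 12.4%. For retained introns the DDT and deltamethrin pair thus had the lowest share, just under the 9.603% of chlorpyrifos against carbaryl. For runs of several skipped exons only chlorpyrifos against deltamethrin, at 16.0%, had a higher share than this pair. For skipped exons its share lay inside the range. No test bears on these ranks. Short exons differed most often. The share was 20.8% for exons of 27 nucleotides or less (41 of 197), against the 14.4% of all skipped exons. It was 16.7% for exons that keep the reading frame against 12.02% for those that do not. Exons whose inclusion with DDT lay 20 points or more from both none and full were also most frequent in the shortest class. They made up 34.01% of it, against 25% of exons of 28 to 51 nucleotides, the next highest. They made up 24.8% of exons that keep the frame and 16.05% of the others. The part of inclusion level in these shares was not tested, nor were exon classes compared in other library pairs. Of 393 shifted events in genes with a usable level, 351 lay in genes within 1.5-fold, where 94.1% of all genes lay.

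The exons below are shown because each is coding and was used differently in the 2 libraries. Sequences were read from GENCODE M21 transcripts (build GRCm38), with the skipped exon in capitals and 15 bases of the exons on either side in lower case.
Pax6: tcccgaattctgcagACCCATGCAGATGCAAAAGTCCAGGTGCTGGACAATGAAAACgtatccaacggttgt
Ptbp1: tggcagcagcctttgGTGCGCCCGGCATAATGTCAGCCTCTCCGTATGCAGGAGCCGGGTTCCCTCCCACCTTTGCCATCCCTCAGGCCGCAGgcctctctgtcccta
Camk2g: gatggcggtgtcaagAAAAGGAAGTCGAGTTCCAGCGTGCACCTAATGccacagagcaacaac
Nrxn2: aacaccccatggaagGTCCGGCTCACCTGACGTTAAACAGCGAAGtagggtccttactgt
Tmpo: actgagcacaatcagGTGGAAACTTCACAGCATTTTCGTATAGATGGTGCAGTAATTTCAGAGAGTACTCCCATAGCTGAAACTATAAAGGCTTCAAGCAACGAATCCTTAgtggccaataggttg
The exons lie at chr2:105684751-105684792 (Pax6, plus strand), chr10:79860117-79860194 (Ptbp1, plus), chr14:20747819-20747851 (Camk2g, minus), chr19:6448255-6448284 (Nrxn2, plus) and chr10:91153085-91153180 (Tmpo, minus).

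The 93-base exon of Mapt adds a microtubule-binding repeat to the protein tau. The form with it held 15.1 FPKM and the form without it none with DDT, an inclusion of 100%, against 1.57 and 16.1 FPKM with deltamethrin, an inclusion of 8.90%. The other 4 libraries ran from 0% with rotenone to 36.5% with imidacloprid, so DDT alone stood high while the summed level was similar. In Slc27a1, a fatty acid transporter, a 107-base exon (chr8:71569342-71569448) was included at 100% with DDT (27.5 FPKM) and at 0% in all 5 other exposed libraries. The 96-base exon of Tmpo, a nuclear lamina protein, was included at 90.5% with DDT and 0.47% with deltamethrin, against 38.7% to 99.9%, so deltamethrin stood apart. Zfpl1, a Golgi protein, had a 197-base exon at 96.8% and 4.12%, and Ipo9, a nuclear import receptor, a 181-base exon at 87.6% and 0%. For both, the other libraries were spread from 10.8% to 99.5% and from 0% to 88.7%. A 46-base exon of Scg3, a granin of secretory granules, went from 100% to 2.03% for one pair of flanking exons, but summed over all flanking pairs its inclusion was 99.0% and 81.6%. The other 2 of the 8 largest gains with DDT were a run of exons in Ice1, with 100% in 3 other libraries as well, and an intron in a clone-named gene.

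Among exons included less with DDT, Pknox1, a homeodomain factor, had a 247-base exon (chr17:31581804-31582050) at 0% with DDT and 97.7% with deltamethrin, against 0% to 13.7% in the others, so deltamethrin alone stood high. A run of exons in Map4, a microtubule-associated protein, was at 4.78% and 99.5%, against 13.7% to 57.7%, with both libraries outside that range. A 56-base exon of the predicted gene Gm27357 was at 0% and 97.7%, against 74.2% to 99.3%. The other 5 of the 8 largest losses with DDT were retained introns. One of 831 bases in Srsf3 (chr17:29038624-29039454) was at 0% with DDT (22.2 FPKM spliced) and 99.95% with deltamethrin (17.7 FPKM retained). This covers a minor part of Srsf3: the spliced form runs into a 456-base exon that other transcripts skip, at 119 FPKM with DDT and 116 FPKM with deltamethrin. In the other 4 libraries retention was 0%, but forms with that exon held only 0.04 FPKM with rotenone and 2.45 FPKM with imidacloprid. In Rsrp1, an arginine and serine rich splicing protein, an intron of 915 bases was at 1.47% and 100%, with all 4 others at 100%, and one of 346 bases at 2.90% and 100%, with the others at 1.57% to 77.8%. An intron of 105 bases in Ddb1, of the DNA damage recognition complex, and one of 1370 bases at a locus named for Mir8094 were at 0% or 0.01% with DDT and 100% with deltamethrin, while the other 4 libraries held both states.

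Splicing regulators and neural genes gave 199 measured events in 87 genes, of which 31 passed 20 points (15.6%, against 13.4% of all events). Ptbp1, the repressor of neuronal exons, carries a 78-base exon in the linker between its RNA-binding domains; it was included at 17.4% with DDT (18.4 FPKM with and 87.0 FPKM without it) and at 84.0% with deltamethrin (67.4 and 12.8 FPKM). The other libraries ran from 21.4% to 79.8%, so the 2 sodium channel agents were the extremes. Pax6 has a 42-base exon that alters the DNA-binding paired domain, and it was included at 9.84% with DDT and 53.7% with deltamethrin, against 8.48% to 17.8% elsewhere. The 33-base exon of Camk2g, in the variable linker of the calmodulin-dependent kinase, was at 0% with DDT and 50.8% with deltamethrin, summed over flanking pairs, against 0% to 12.5%. Ank2, an ankyrin, had a 183-base exon at 40.7% and 99.7%, with the others between 40.2% and 99.0%.

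Several exons of synaptic adhesion and signalling genes were included more with DDT than with deltamethrin. The short exon of Nrxn2 was at 80.2% with DDT and 53.5% with deltamethrin, against 85.8% to 96.6%. Both libraries thus lay below the others, with deltamethrin the lowest of the 6. Nrxn2 encodes a presynaptic adhesion protein whose alternative exons bear on the choice of partner. A 115-base exon of Gria2 was at 53.5% and 23.3%, against 35.2% to 62.2%. A 43-base exon of Camkk2 was at 41.8% with DDT and 0% in the other 5, and a 99-base exon of Camk2d at 31.2% and 0%, against 0% to 6.24%. Ppp3cb had a 30-base exon at 80.6% and 44.9%, inside the range of 21.1% to 93.2%. The kinase Clk4, which phosphorylates splicing factors, had a 91-base exon at 59.1% and 14.9%, against 49.3% to 78.4%, and a 59-base exon, summed over flanking pairs, at 21.8% and 54.5%, against 0% to 26.8%, so in both the deltamethrin library was apart.

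**Figure D5:**
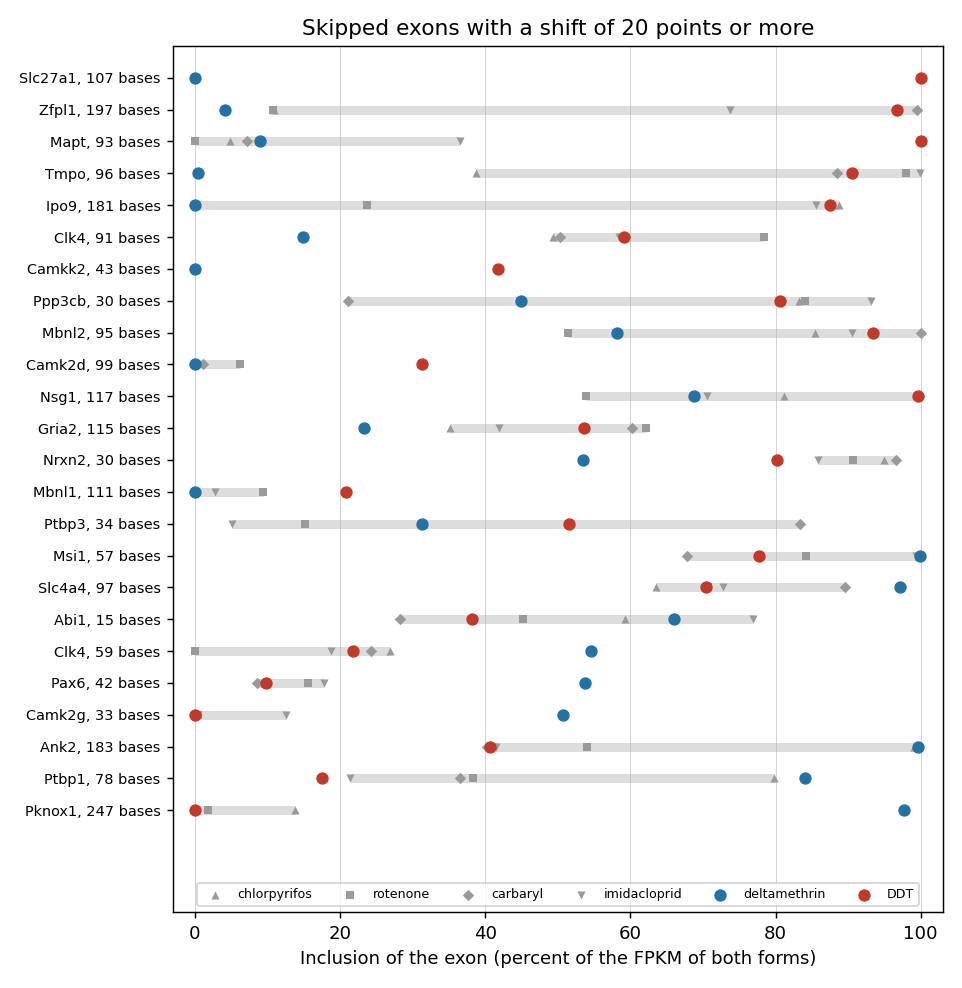
Percent inclusion, summed over all pairs of flanking exons, of skipped exons with the largest shifts or in neural and splicing genes, where DDT (red) and deltamethrin (blue) differ by 20 points or more; grey symbols and bars are the other 4 exposed libraries and their range. Slc27a1, Mapt, Camkk2 and Camk2d have DDT apart, and Pknox1, Camk2g and Pax6 have deltamethrin apart. In Nrxn2 both lie below the grey range, deltamethrin farther.

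Transcript starts were shared out differently in 915 of 4641 genes with more than 1 start (19.7%), and transcript ends in 148 of 1486 genes (9.96%), taking a shift of 20 points or more on any start or end. Among genes whose listed starts or ends all lay on their own annotation, these were 667 of 3644 (18.3%) and 81 of 1109 (7.30%), and the named genes were taken from that set. Cnpy1, a secretory pathway protein, had its start FPKM wholly on the first exon at chr5:28245708-28245806 with DDT (5.08 FPKM). With deltamethrin it lay wholly on another (11.98 FPKM), listed as the single base chr5:28210342. G6pc3, a glucose-6-phosphatase, had 95.8% of it on chr11:102189620-102189652 with DDT and none there with deltamethrin, where 99.8% lay on an adjacent start. Dusp3, a phosphatase, had 95.5% and 0% on one start, and Trp53bp1, a DNA break factor, 96.9% and 2.21%. Eif4enif1, which carries eIF4E into the nucleus, had 96.1% and 0.35% on one of 7 listed starts, chr11:3202663-3202797. The main one with deltamethrin, chr11:3202663-3203194 (68.2%), begins at the same base, so these 2 differ in where the first exon ends. Listed starts are first exons, and the counts of start shifts can hold such cases.

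At the transcript end, Farsb, a phenylalanine tRNA charging subunit, had 95.7% of its end FPKM on the last exon at chr1:78417975-78418222 with DDT and none there with deltamethrin, while its level was the same at 18.4 and 19.1 FPKM. Ldha, the lactate dehydrogenase, had 80.5% on one end with DDT (47.5 FPKM) and 0.11% with deltamethrin. Its other end was near level at 11.5 and 10.4 FPKM, so the end total of Ldha was higher with DDT. Cdk5rap2, a centrosome protein, was alike in this, with 36.2 FPKM (76.9%) and 0 on one end and 9.25 and 10.05 FPKM on another. Cenpt, of the inner kinetochore, had 96.3% and 10.7% on one end, and Rnaset2a, a ribonuclease, 98.4% and 0%. Of the 377 genes with a start shift and a usable level, 11 differed 2-fold in level (2.92%), and of the 91 with an end shift 6 did (6.59%), against 1.79% of all genes.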

How the data were processed

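Total RNA was sequenced from 7 cultures with 1 library each, and the 6 exposed ones were used here; the control was not. The submitters' processing notes name bcl2fastq (2.17.1.14), cutadapt (1.9.1), HISAT2 (2.0.1) and the build GRCm38, and no source used here names the program behind the FPKM. FPKM were taken as the authors deposited them, 1 value per event. Repeated lines (5388 with DDT, 5484 with deltamethrin) were dropped. Start and end FPKM were summed per gene as the file names it, which was another gene than GENCODE M21 gives for 8.02% of matched start FPKM with DDT, and averaged where the sums differed by at most 0.3 (log2). Of other genes at 1 FPKM, 3035 had ends that disagreed, 1247 lacked an end total and 142 a start total; no fold is given for these. Folds are of log2(FPKM + 1), which understates low genes. No test was run. Splicing and usage shares were compared at 5 FPKM and 20 points. Members, 40 gene lists and rules were chosen with earlier results of these data known. Of 919 list genes 467 could be used. Named genes were the 12 highest and 12 lowest differences at 2-fold or more and a mean of at least 5 FPKM (no predicted models, clone names or pseudogenes), sodium channel subunits, up to 5 members per list with the largest difference, 8 splicing events each way and 5 genes for starts and for ends; other members named were picked for their role after their values were seen, and the own-annotation limit on starts and ends was set after seeing the data. Steps were tested on simulated data. Python 3.11.15, pandas 2.3.3 and numpy 2.4.6 were used. A few items that these rules take in are not reported here.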

Additional observations from a re-analysis of the deposited data

How the results depend on the processing

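With 1 library per insecticide no library could be left out, and no error can be given. No paired analysis was possible because each group has 1 library. All 24 named genes kept their direction and 2-fold size under each of the 214 alternatives that could be run for them. Many of these could not have come out otherwise. A changed filter can only drop a gene, not alter its difference, and a smaller pseudocount can only widen it. Only the start sum alone, the end sum alone, the annotation match and the centring could have made a named gene fall short. The medians of the 8 lists on sodium channel partners, activity, stress and lipid synthesis moved by less than 0.1 under all 72 alternatives; over 39 lists, 337 of 347 alternatives did so and 1 reversed, oligodendrocyte lineage markers without the agreement filter (0.0487, against -0.16). The 111 genes at 2-fold became 181 with a pseudocount of 0.1 FPKM and 206 without the agreement filter, and lay between 80 and 119 otherwise. The 966 splicing events became 1667 with forms of at least 2 FPKM, 225 with at least 20 FPKM and 516 at 30 points. The 915 genes with shifted starts became 278 at 20 FPKM and 564 at 30 points. The 148 genes with shifted ends became 255 at 2 FPKM, 49 at 20 FPKM, 81 at 30 points and 81 with all ends on their own annotation, the last chosen after seeing the data. As shares of those measured, splicing calls ran from 17.8% at 2 FPKM to 9.14% at 20 FPKM. Skipped exons summed over flanking pairs, also chosen afterwards, gave 704 of 6107.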

Other observations

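Genes with a value in one of the 2 libraries and listed at 0 in the other numbered 9 each way. Those with DDT only included Arxes1 (4.66 FPKM) and Cstf2t (2.11 FPKM), both listed at 0 in the other 4 libraries too, and Slc35c1, the GDP-fucose carrier of the Golgi (4.44 FPKM, at most 0.60 FPKM elsewhere). Those with deltamethrin only included Ing2, a chromatin reader (6.22 FPKM), and the pseudogene Anp32b-ps1 (21.2 FPKM), both listed at 0 elsewhere. The histone gene Hist1h2ao stood at 138 FPKM with DDT and was listed at 0 with deltamethrin, but other libraries reached 165 FPKM. These genes were chosen after their values were seen.

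Genes that handle foreign compounds and oxidants differed little. Of 29 xenobiotic metabolism genes 17 had no start or end event, and the 6 usable ones split into 3 higher and 3 lower with DDT; Gstm5, a glutathione transferase, stood at 26.6 FPKM with DDT and 20.8 FPKM with deltamethrin, both above the 12.1 to 16.0 FPKM of the other 4. Of 18 NRF2 targets 9 were higher and 9 lower. Hmox1, which degrades haem, stood at 31.0 and 26.1 FPKM, against 19.1 to 26.6 FPKM. Slc39a7, a zinc exporter of the endoplasmic reticulum, stood at 84.4 and 33.8 FPKM, a difference of 1.30 that became 2.175 when its events were matched to the annotation. Of 8 oestrogen receptor pathway genes 2 were higher with DDT and 6 lower.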
